A study of Mus musculus with 87 samples.

Results

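The offspring of mating 3 were 8 juvenile mice whose tail DNA was screened by ETn capture-seq, 4 of them Chr4-cl KO/KO (KO) and 4 wild type (WT). They are 8 of the 87 libraries of the series and were chosen by their labelled parents, C7416 and C7249. All 8 are labelled B6x129X1/SvJ (F2), a mixed C57BL/6 and 129X1/SvJ background. The KO animals were the females M05137 and M05666 and the males M05143 and M05668, and the WT animals were the female M05139 and the males M05141, M05667 and M05669. Ages in days are not given in the labels. The dam C7416 and the sire C7249 were both KO/WT and were sequenced from tail, C7416 as an offspring of mating 1 and C7249 as an offspring of mating 2. The 4 grandparents were sequenced as well. They were BA27227 (KO/WT) and BA27232 (KO/KO), both from ear, and BA27228 and BA27084 (both KO/WT), both from tail. With these 6 ancestors the litter rests on 14 libraries. The labels name no agent given to any of them. The deletion is constitutive, was made in ES cells that were injected into blastocysts, and was crossed to 129X1/SvJ, so KO and WT littermates may also differ in the strain origin of sequence linked to it.

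ETn elements are endogenous retroviruses of the mouse that move by copying their RNA into DNA and inserting it elsewhere. They are flanked by long terminal repeats (LTRs), and some copies are still active. KRAB zinc finger proteins (KRAB-ZFPs) bind such elements in early embryonic cells and recruit a silencing machinery that sets repressive chromatin. The Chr4-cl deletion removes a cluster of genes for KRAB-ZFPs. An ETn copy that inserts after the zygote stage is carried by only some cells of the animal. One that inserts in the germ line of a parent is carried by all cells of the offspring that inherit it.

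The capture probes and the guides define what could be measured. The probe below is one of 52 identical copies among 1274 ETn probes of 120 bases (902 different sequences), and it is shown because only DNA that it or its relatives hybridise with is enriched. Capitals mark the bases TG with which 673 of the ETn probes begin.
ETn LTR probe: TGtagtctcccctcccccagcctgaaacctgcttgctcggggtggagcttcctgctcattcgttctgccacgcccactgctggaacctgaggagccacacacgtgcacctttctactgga
The pair of guides that cut out the cluster each matched the mouse genome (build mm9) once, on the minus strand. The adjacent genomic bases in capitals are the PAM that Cas9 needs.
Guide 1, chr4:144973820-144973839: caaaggggctcctcgatggaTGG
Guide 2, chr4:147227524-147227543: tttatggccgtgctaaggtcAGG
The stretch from one site to the other is 2.25 Mb long, and 8.87% of it is unsequenced in this build. It holds 87 annotated genes, 21 of them protein coding, among them Rex2, Zfp534, Zfp600, Zfp933 and Gm13051.

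A library's depth is its total of uniquely mapped reads whose mate lies in an ETn repeat. It ran from 580349 to 690300 in the 8 offspring and up to 827035 in the 14 libraries. Counts are given as RPM, reads scaled to a total of 1000000, and a locus was called at 10 RPM, which is 5.80 reads in the shallowest and 6.90 in the deepest offspring library. Reads from chromosome Y made up 0.142% to 0.153% of the reads of the 5 males and 0.00482% to 0.00715% of those of the 3 females, which matches every sex label. Any 2 littermates differed at 21 to 58 of the 96 loci that segregated in the litter, so no library was a copy of another. Library depth was 661646 ± 38149 reads in KO and 624000 ± 33250 in WT (SD, n = 4 each).

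The genotype labels were read first from ETn loci inside the deleted cluster, since a KO animal has no copy of these loci, a KO/WT animal 1 and a WT animal 2. At the strongest of them, chr4:146917867-146925152, the KO offspring held 46.7, 51.1, 37.9 and 57.9 RPM and the WT offspring 615, 576, 592 and 560 RPM. The 5 KO/WT parents and grandparents lay between, at 428 to 504 RPM, and the KO grandparent BA27232 held 63.2 RPM. The groups did not overlap. All 4 KO offspring were nonetheless above the 10 RPM limit for a call there, though the locus is deleted in them. A call at that limit therefore need not stand for a copy of the locus. At chr4:145080501-145083011 the KO offspring held 4.52, 1.65, 4.38 and 7.24 RPM, the WT offspring 581, 542, 576 and 596 RPM, and the KO/WT ancestors 386 to 425 RPM. At chr4:145019453-145021647, in an intron of the annotated gene Gm13227, the values were 0 to 6.03 RPM in KO, 299 to 331 RPM in the KO/WT ancestors and 403 to 437 RPM in WT. All 14 libraries fitted their labelled genotype at these 3 loci, the only ones inside the cluster that held at least 100 RPM in all 4 WT offspring.

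These loci also show how RPM scales with copy number. WT offspring, with 2 copies, held 1.27, 1.42 and 1.33 times the mean of the KO/WT ancestors with 1 copy, in the order given above. RPM therefore rose by less than the number of copies at each of the 3 loci, and the RPM of an insertion is used here as a level and not as a share of cells.

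**Figure D1:**
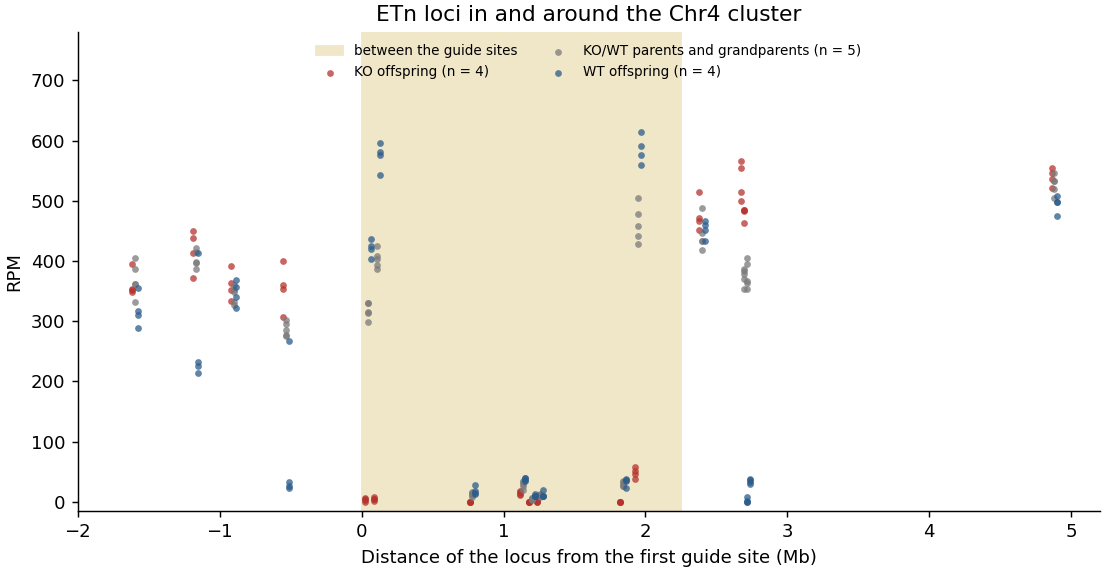
RPM (y axis) of each ETn locus called inside the cluster, and of each locus of at least 100 RPM outside it, against its distance in Mb from the first guide site (x axis), with 1 point per library. KO offspring (red) lie at 0 to 57.9 RPM inside the shaded interval, and WT offspring (blue) lie above the KO/WT ancestors (grey) at the 3 strong loci.

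Single-animal insertions address the question for which the matings were set up, whether KO animals gain more ETn insertions than their littermates. Such an insertion is a locus called in 1 animal, called in no other animal of the series, and at which no sequenced ancestor had a read. M05137 (KO) had 0, M05143 (KO) 50, M05666 (KO) 1 and M05668 (KO) 91. M05139 (WT) had 56, M05141 (WT) 12, M05667 (WT) 26 and M05669 (WT) 30. The KO animals held both the lowest and the highest numbers, and the 4 WT animals lay within their range. The mean was 35.5 ± 43.7 in KO and 31.0 ± 18.4 in WT (SD, n = 4 each), while the median was 25.5 in KO and 28.0 in WT. Without M05668 the KO mean was 17.0, below that of WT, and without M05137 or M05666 it was 47.3 or 47.0. Over the 16 pairs of a KO and a WT animal, the percent with more insertions in KO minus the percent with fewer was -12.5. The exact permutation test of the rank sum, one-sided for more in KO, gave p = 0.657 (adjusted p = 0.857 over 4 comparisons). The smallest p that 4 against 4 animals allow is 0.0143, so a full separation would have passed at the unadjusted level. After adjustment over the 4 comparisons no result, even a full separation, could have fallen under 0.05.

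The spread within KO ran along the labelled sex. The KO females had 0 and 1 insertions and the KO males 50 and 91, while the WT female had 56 and the WT males 12, 26 and 30. In males alone, a choice made after these values were seen, KO exceeded WT in every pair, with means of 70.5 (n = 2) and 22.7 (n = 3), and the exact one-sided permutation p was 0.1, the smallest that 2 against 3 animals allow. Some inherited ETn loci split the KO animals in the same way as sex. At chr4:123830179-123833063 the KO females held 404 and 394 RPM and the KO males 4.94 and 7.24 RPM. At chr8:4689000-4691182 the KO females held 0 RPM and the KO males 180 and 201 RPM. Neither the part of sex nor that of such loci in the result was tested. The 4 animals with numbers M05137 to M05143 and the 4 with numbers M05666 to M05669 each held 2 KO and 2 WT animals, and the labels do not say what the ranges stand for. In the first, KO had 0 and 50 insertions and WT 56 and 12. In the second, KO had 1 and 91 and WT 26 and 30.

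The absence of insertions in M05137 did not depend on the 10 RPM limit. At 5 RPM the KO animals had 0, 144, 1 and 214 insertions and the WT animals 123, 54, 69 and 136, in the order above. At 20 RPM they had 0, 10, 1 and 27 in KO and 15, 3, 6 and 5 in WT. Regions that overlap no region of any other animal were counted by their reads. With 4 or more reads there were 0 in M05137 and 1 in M05666, against 139 in M05143, 209 in M05668, 123 in M05139, 50 in M05141, 68 in M05667 and 84 in M05669. With 2 or 3 reads there were 1 in M05137 and 4 in M05666, against 81 to 278 in the other 6 offspring. Regions of 1 read were found in all, 606 in M05137, 813 in M05666 and 764 to 1418 in the others. M05137 had the fewest of these in the litter. The libraries of both KO females thus held many single reads but almost no private cluster of reads. The labels do not say whether they were sampled or prepared differently, and its part in the 0 and 1 insertions was not tested.

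**Figure D2:**
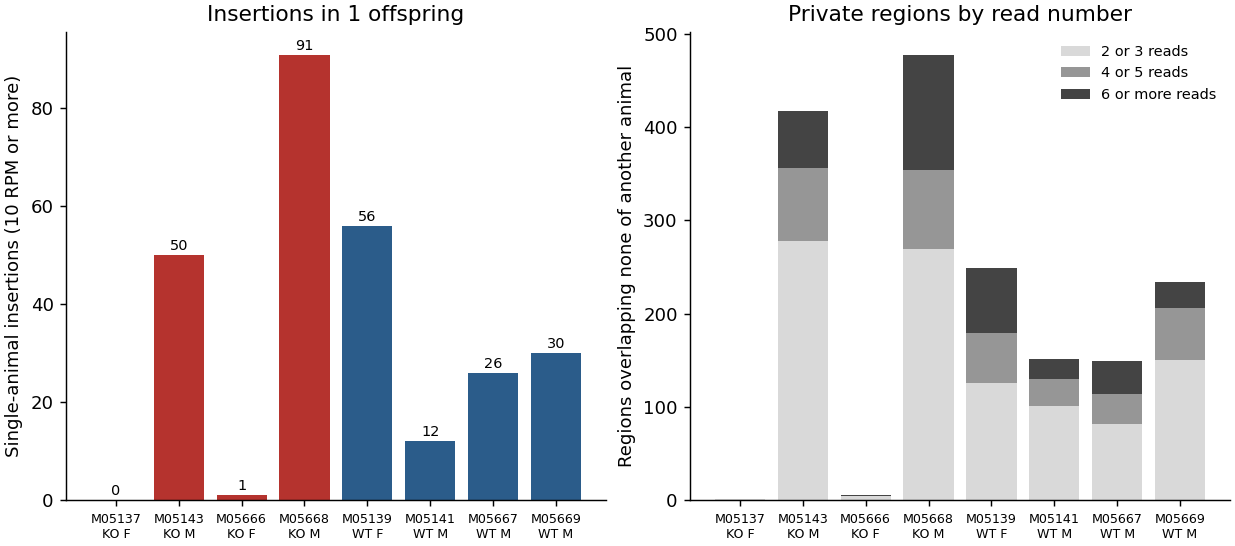
Left, number of single-animal insertions (y axis) in each of the 8 offspring (x axis, with genotype and sex), red for KO and blue for WT. Right, number of regions of 2 or more reads that overlap no region of another animal (y axis), stacked by read number. M05137 has 0 insertions and 1 such region, and M05668 has 91 insertions.

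The 266 insertions, 142 in KO and 124 in WT, had few reads. Their median was 9 reads or 14.2 RPM, and 199 of them (74.8%) were under 20 RPM. Medians per animal were 13.2 RPM in M05143 and 14.5 RPM in M05668 (KO), and 13.9, 16.2, 15.3 and 12.1 RPM in M05139, M05141, M05667 and M05669 (WT). The single insertion of M05666 held 293 RPM. For the median per animal the exact two-sided permutation p was 0.857 (n = 3 KO and 4 WT, adjusted p = 0.857), and M05137 gave no value. The smallest p that 3 against 4 animals allow is 0.0571, which is above the threshold. This test could therefore not have passed with any values, and no conclusion is drawn from it. The mean of the KO medians, 107 RPM, rests on M05666, without which it was 13.8 RPM, below the WT mean of 14.4 RPM. In tail DNA the share of cells that carry an insertion and the efficiency with which its flank is captured cannot be told apart.

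Of the 266 insertions 257 had no read in any other library, 139 of 142 in KO and 118 of 124 in WT. No insertion lay within 1000 bp of reference sequence like an ETn probe (0 of 266, which allows a share of up to 1.13%), whereas 2213 of the 2308 loci called in all 14 libraries did (95.9%). The definition of a single-animal insertion leaves out loci shared between animals. This contrast was therefore largely set by the definition and is not a separate property of the insertions. The insertions were spread over chromosomes 1 to 19, X and Y. Per 100 Mb, chromosome 9 held the most, 17.7 (22 insertions), followed by chromosome 16 with 14.2 (14 insertions), and chromosome X the fewest, 2.40 (4 insertions). These rates are per reference length and not per copy, and males have a single X. They pool all offspring, of which M05668 alone held 91 insertions. No pair of insertions lay within 10 kb of each other.

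The insertion with the highest RPM in the litter was in M05666 (KO), in an intron of Palld at chr8:64106528-64107341. Palld encodes palladin, which bundles actin filaments. It had 201 reads, 293 RPM, and no read in any other library of the series. The highest in WT was in M05139, in an intron of Syt7 at chr19:10484877-10485530, with 53 reads and 81.9 RPM. Syt7 encodes synaptotagmin 7, a calcium sensor of vesicle fusion. M05143 (KO) had another insertion in an intron of the same gene, at chr19:10508915-10509291, with 9 reads and 14.8 RPM. These 2 lay 23385 bp apart, and Syt7 was the only gene with insertions in more than 1 offspring.

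The next highest in KO were 3 intergenic insertions of M05668. They held 49.3 RPM on chromosome 7, 165 kb from Svip, 42.0 RPM on chromosome 7, 12.1 kb from Gpr139, and 40.6 RPM on chromosome 5, 4.82 kb from Tbl2. The fifth was in M05143, with 36.2 RPM in an intron of Znrf2, which encodes a ubiquitin ligase. In WT, M05667 had 35.3 RPM in an intron of Ptk2, the gene of focal adhesion kinase, and 30.7 RPM each at Nisch and at 2.97 kb from Dennd5b. The fifth WT insertion, in M05139, held 29.3 RPM and lay 22.8 kb from Aak1. Apart from Palld and Syt7 no insertion reached 50 RPM.

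**Figure D3:**
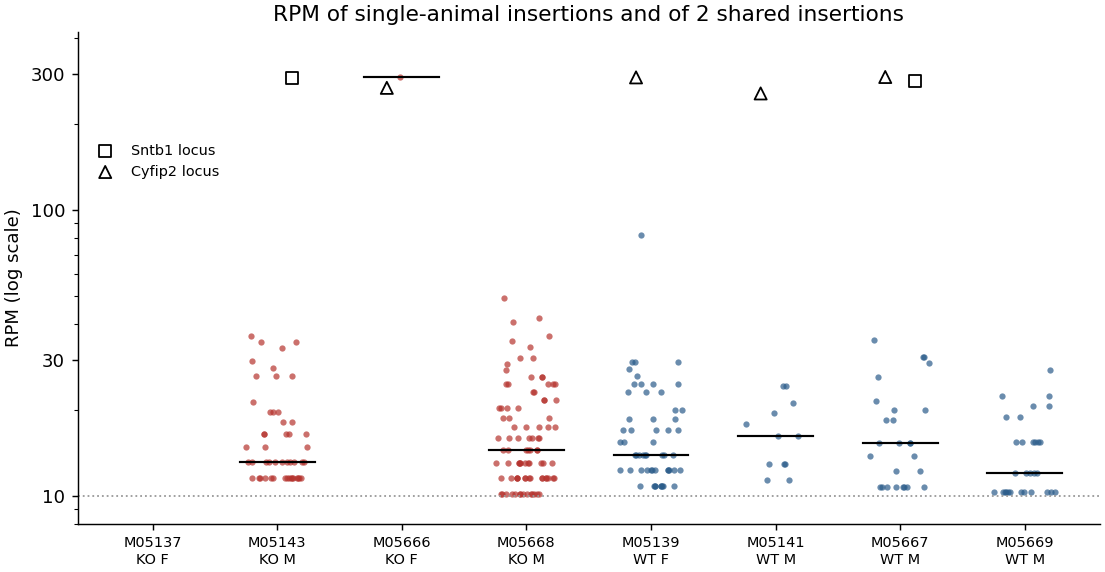
RPM on a log scale (y axis) of each single-animal insertion in each offspring (x axis, with genotype and sex), with a line at the median of each animal and a dotted line at the 10 RPM limit. Open triangles and squares are the shared insertions at Cyfip2 and Sntb1, at 257 to 293 RPM, and the insertion of M05666 at Palld, at 293 RPM, lies beside the highest of them.

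The reference sequence in the middle of the read clusters at Palld and Syt7 is given here to place these insertions. The cluster marks the flanks of an insertion and not its point, so no base is in capitals. The sequence is the plus strand of mm9.
Palld intron, chr8:64106834-64107033: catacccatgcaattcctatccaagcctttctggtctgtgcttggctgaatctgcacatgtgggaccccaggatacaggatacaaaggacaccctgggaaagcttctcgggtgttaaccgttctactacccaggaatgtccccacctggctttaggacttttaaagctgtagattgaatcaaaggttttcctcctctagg
Syt7 intron, chr19:10485103-10485302: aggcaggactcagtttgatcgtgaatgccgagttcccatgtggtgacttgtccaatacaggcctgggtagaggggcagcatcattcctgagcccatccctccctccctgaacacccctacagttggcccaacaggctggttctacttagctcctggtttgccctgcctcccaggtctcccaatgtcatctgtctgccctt

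An annotated gene was overlapped by 134 of the 266 insertions (50.4%, exact 95% interval 44.2% to 56.5%), 72 of 142 in KO (50.7%) and 62 of 124 in WT (50%). Annotated genes cover 39.8% of the chromosomes in this build. That is a share of bases over whole chromosomes, whereas a read cluster counted if any of its bases overlapped a gene. These are unlike measures, and enrichment in genes was not tested. Insertions of 1 animal are not independent animals, and the interval covers counting error only. The percent per animal was 54, 100 and 48.4 in the KO animals M05143, M05666 and M05668, and 51.8, 25, 50 and 56.7 in the WT animals in the order above. The exact two-sided permutation p was 0.629 (n = 3 KO and 4 WT, adjusted p = 0.857), and the value of 100 is that of 1 insertion. With 3 against 4 animals the smallest possible p is 0.0571, above the threshold, so this test could not have passed either. Without M05666 the KO mean was 51.2 and the WT mean 45.9. Most genic insertions lay in introns, 63 in KO and 51 in WT, and 4 in KO and 5 in WT lay in untranslated or non-coding exons.

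Read clusters of 11 insertions, 5 in KO and 6 in WT, overlapped a coding exon. The highest was at Nisch in M05667 (WT), with 20 reads and 30.7 RPM. Nisch encodes nischarin, which binds integrins and restrains cell migration. In KO, M05143 had such clusters at Nup210l (19.8 RPM), a gene related to a nuclear pore protein, at Dusp10 (11.5 RPM), a phosphatase of stress-activated kinases, and at Prdm1 (11.5 RPM), the gene of the repressor Blimp1. M05668 had them at Mgat5b (11.6 RPM), a glycosyltransferase, and at Lrrk2 (10.1 RPM), a large kinase. In WT, M05141 had them at Itm2b (21.1 RPM), a membrane protein gene, at Col19a1 (16.2 RPM), a collagen gene, and at Etnk2 (13.0 RPM), an ethanolamine kinase gene. M05669 had them at Sv2a (12.1 RPM), a synaptic vesicle protein gene, and at Ctnnbl1 (10.3 RPM), a gene of a splicing-associated protein. Overlap of the cluster does not place the insertion in the exon, as the Nisch cluster shows, which spans 517 bp around an exon of 49 coding bases. That exon is in capitals below, on the plus strand, with the gene on the minus strand.
Nisch, chr14:32005727-32005855: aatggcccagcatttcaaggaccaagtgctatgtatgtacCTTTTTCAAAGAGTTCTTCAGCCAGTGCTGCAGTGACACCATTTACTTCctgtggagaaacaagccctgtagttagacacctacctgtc

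Beside the single-animal insertions, 2 shared insertions absent from all 4 grandparents were called in more than 1 offspring. One lay in an intron of Sntb1 at chr15:55654317-55655079. Sntb1 encodes a syntrophin, an adaptor protein of the dystrophin complex. It held 177 reads (291 RPM) in M05143 (KO) and 185 reads (284 RPM) in M05667 (WT), and none in either parent. M05666 had 1 read and M05669 had 2 reads there, below the limit. No other library of the series had a read. It was the only germ line locus first seen in this litter, that is, called in at least 2 siblings without a read in their ancestors.

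The other lay at Cyfip2, at chr11:46034231-46035369, whose product is a subunit of the WAVE complex that controls actin assembly. It held 202 reads (244 RPM) in the dam C7416 and none in her sequenced parents. It was passed to 4 of 8 offspring, M05666 (KO) with 268 RPM and M05139, M05141 and M05667 (WT) with 292, 257 and 293 RPM, and the other 4 offspring had no read. The sire C7249 had 1 read. A second library of C7416, made from adult tail, held 179 reads (286 RPM), and C6927, a KO/WT littermate of C7416, held 212 reads (262 RPM). C7417, a KO offspring of the same mating, had 1 read. The read cluster spans 1139 bp and includes a coding exon of 131 bases, which is in capitals below with 40 bases on either side. The sequence shows the plus strand of mm9 and the gene lies on the minus strand. For Sntb1 the middle of the cluster is given.
Cyfip2, chr11:46034798-46035008: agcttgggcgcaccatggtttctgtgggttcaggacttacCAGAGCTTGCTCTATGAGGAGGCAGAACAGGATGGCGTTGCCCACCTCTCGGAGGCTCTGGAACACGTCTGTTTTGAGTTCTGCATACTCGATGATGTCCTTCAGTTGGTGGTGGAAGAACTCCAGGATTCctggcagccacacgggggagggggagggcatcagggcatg
Sntb1 intron, chr15:55654598-55654797: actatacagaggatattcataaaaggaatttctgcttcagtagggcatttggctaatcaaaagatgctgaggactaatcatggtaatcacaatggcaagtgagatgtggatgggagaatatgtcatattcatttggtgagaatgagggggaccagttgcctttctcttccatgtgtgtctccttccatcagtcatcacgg

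The 6 carrier values of these 2 shared insertions in the litter averaged 281 ± 15.1 RPM (SD) and ran from 257 to 293 RPM. The insertion at Palld, called in M05666 alone, lay just above all of them, at 293 RPM. The other 265 single-animal insertions lay below it, and the median of all 266 was 5.05% of the carrier mean.

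**Figure D4:**
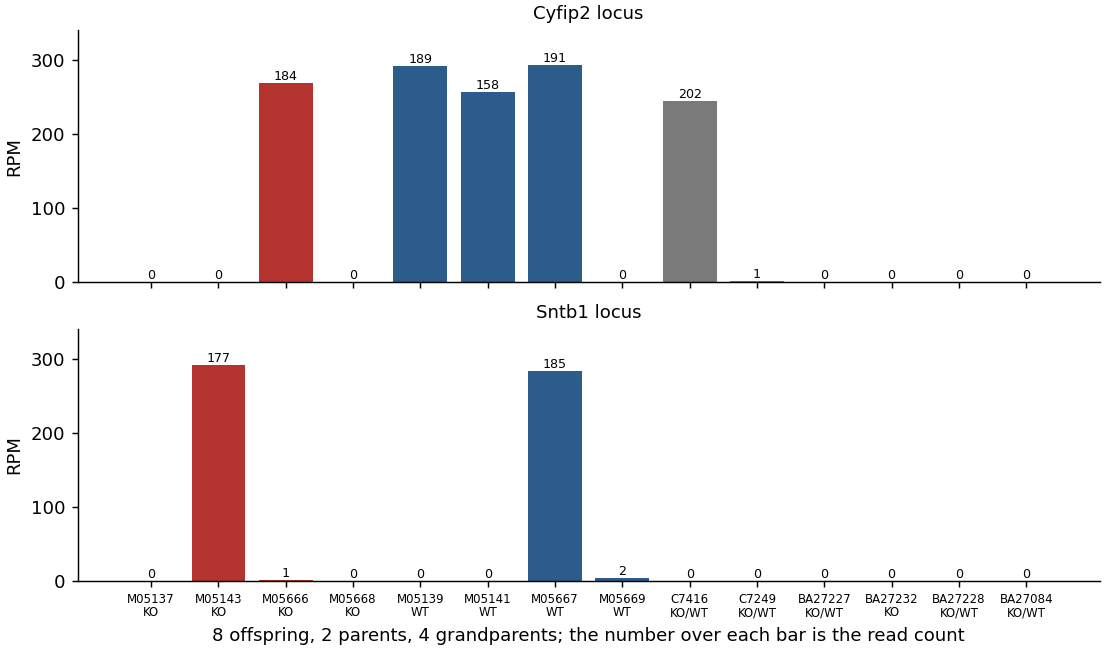
RPM (bars) and read counts (numbers over the bars) at the Cyfip2 and Sntb1 insertions in the 8 offspring, 2 parents and 4 grandparents, red for KO, blue for WT and grey for KO/WT. Cyfip2 is carried by C7416 and 4 offspring, and Sntb1 by 1 KO and 1 WT offspring and no ancestor.

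A further strong locus did not count as a single-animal insertion. In an intron of Txlnb, a taxilin gene, at chr10:17529402-17529996, M05141 (WT) held 79 reads (128 RPM) and the sire C7249 held 1 read (1.57 RPM), and no other library of the series had a read. It was looked up after its values were seen. Across all loci, Txlnb, Sntb1 and Palld were the only ones at which an offspring held at least 100 RPM while neither parent was called.

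The parents' own single-animal insertions were not found in the litter. For a parent, calls in its own offspring were allowed. C7416 had 26, with a median of 12.1 RPM and a highest value of 35.1 RPM, and C7249 had 19, with a median of 14.2 RPM and a highest value of 37.8 RPM. None of these 45 was called in an offspring, and none had a single read in any of the 8. Cyfip2, at 244 RPM in C7416, is not among the 26 since a littermate of C7416 carried it too.

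Inherited ETn loci differed between littermates as well. A segregating locus was defined as one with at least 100 RPM in a parent and not called in at least 1 offspring, which gave 96 loci. At the 10 RPM limit the KO animals M05137, M05143, M05666 and M05668 were called at 57, 65, 65 and 66 of them, and the WT animals M05139, M05141, M05667 and M05669 at 57, 51, 57 and 61. The means were 63.3 ± 4.19 in KO and 56.5 ± 4.12 in WT (SD, n = 4 each), and the ranges overlapped. The difference did not pass the test (exact two-sided permutation p = 0.114, adjusted p = 0.457). The smallest unadjusted p this design allows is 0.0286, and the adjusted p could not have fallen under 0.05 with any values. Some of these calls were weak, such as WT values of 12.4 to 17.2 RPM at chr11:6947613, where KO held 410 to 582 RPM. With a locus taken as carried only at 50 RPM or more, a limit chosen after the values were seen, the same 96 loci gave 56, 64, 64 and 66 in KO and 55, 49, 55 and 57 in WT. The exact two-sided permutation p was then 0.0571. On chromosome 4, which holds the deletion, KO animals carried 10, 4, 10 and 4 of these loci and WT animals 2, 2, 7 and 2, at either limit. Among them are chr4:145019453 and chr4:145080501 inside the deleted cluster, each called in 0 KO and 4 WT animals. Their carriage was set by the genotypes compared. Also among them is chr4:147667616 beside the cluster, called in 4 KO and 0 WT animals. Without chromosome 4 the means at 10 RPM were 56.3 in KO and 53.3 in WT (exact two-sided permutation p = 0.571). These means still include loci of chromosome 11 that separated KO from WT in this litter (below). Leaving out both chromosomes was not tested, so a KO excess elsewhere cannot be read from them. Of the 83 autosomal loci, 32 held at least 50 RPM in both parents and were carried, at that limit, in 171 of 256 possible cases (66.8%). The 31 of C7416 alone were carried in 126 of 248 (50.8%), and the 20 of C7249 alone in 99 of 160 (61.9%). At 10 RPM the numbers of loci were 38, 27 and 18, and the percents 69.1, 50.5 and 62.5. Loci on 1 chromosome are inherited together, so these cases are not independent.

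Read counts at each locus were then compared between KO and WT with edgeR's quasi-likelihood test. Of 2496 loci tested, 7 were higher in KO (0.28% of those tested) and 5 were lower (0.2%) at an adjusted p under 0.05. All 12 lay on chromosomes 4 and 11, with 8 of the 124 loci tested on chromosome 4 and 4 of the 112 on chromosome 11. The 5 lower loci were all inside the deleted cluster, where a lower count in KO was set by the deletion and is not a separate result. In calls rather than counts, 2 of 2969 loci were called in all 4 KO and no WT animal (0.0674%), and 4 in all 4 WT and no KO animal (0.135%), and all 4 of the latter were inside the cluster.

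Besides the 3 strong loci in the cluster, the test called weaker ones there. At chr4:146815715-146816638, in an annotated intron of Gm16889, the WT offspring held 34.0, 22.7, 35.3 and 37.9 RPM and no KO offspring had a read. Against a limit of 3 reads per library this is at least 7.14-fold lower in KO, with an adjusted p of 0.00941 in edgeR. At chr4:146107781-146109027, 13.8 kb from Gm13051, one of the KRAB-ZFP genes of the cluster, KO held 11.7 to 18.1 RPM and WT 34.0 to 39.6 RPM. The log2 fold change in edgeR was -1.32 ± 0.16 (SE), with an adjusted p of 0.0106. Of the 13 alternative settings 10 kept the call of the first and 11 that of the second of these weaker loci, with adjusted p up to 0.0824 and 0.0611. At 3 loci of low counts inside the cluster that the test did not call, KO held 0 to 2.90 RPM and WT 9.20 to 27.6 RPM.

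Loci beside the cluster went the other way. At chr4:147667616-147670848, 0.440 Mb beyond the second guide site, KO held 499, 555, 515 and 566 RPM and WT 0, 0, 1.53 and 8.62 RPM. The KO/WT ancestors held 353 to 387 RPM and the KO grandparent 504 RPM. At chr4:147689506-147692275, 0.462 Mb beyond the site, KO held 462 to 485 RPM and WT 29.1 to 37.9 RPM, a log2 fold change of 3.82 ± 0.086 (SE, edgeR, adjusted p = 2.87e-07). At both loci every library labelled KO or KO/WT was high and every WT library low, among all 14. Farther out, at chr4:155294067-155297916, the values were 140 to 150 RPM in KO and 89.3 to 110 RPM in WT (log2 fold change 0.61 ± 0.082, adjusted p = 0.0167). That call was lost without the filter on low counts and on leaving out any one of M05137, M05143, M05668, M05139, M05141 or M05667, with an adjusted p of up to 0.0963.

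On the other side 1 WT animal stood apart. At chr4:144439298, 0.527 Mb before the first guide site, KO held 306 to 400 RPM and the WT animals M05139, M05141 and M05669 26.3, 32.5 and 22.4 RPM, but M05667 held 267 RPM, close to the KO/WT ancestors at 276 to 303 RPM. At 1.17 Mb before the site M05667 held 412 RPM and the other 3 WT animals 213 to 233 RPM. Inside the cluster M05667 held the values of a WT animal, 437, 576 and 592 RPM at the 3 strong loci. Its levels before the first guide site thus lay near those of the KO/WT ancestors, and its levels inside the cluster lay with the other WT animals.

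The 4 loci on chromosome 11 were not near the deletion, yet they separated the genotypes in this litter. At chr11:6763764-6767132, 186 kb from Ramp3, KO held 371, 357, 359 and 516 RPM and WT 1.54, 0, 0 and 1.72 RPM. Both parents carried it, at 348 and 364 RPM. Of the grandparents, BA27227 and BA27084 carried it, at 338 and 357 RPM, and BA27232 and BA27228 had no read there. At chr11:6947613-6950421, 13.1 kb from Adcy1, an adenylate cyclase gene, KO held 410 to 582 RPM and WT 9.20 to 17.2 RPM, a log2 fold change of 5.15 ± 0.20 (SE, edgeR, adjusted p = 4.99e-06). At chr11:7860576-7865542 and chr11:7866698-7869685, KO held 308 to 420 and 311 to 382 RPM, and WT 95.1 to 115 and 106 to 126 RPM. M05668 had the highest value of the KO animals at each of the 4 loci.

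In the earlier matings the chromosome 11 locus did not follow the genotype in this way. At chr11:6763764-6767132 it was called in 1 of 5 KO and 4 of 8 KO/WT juveniles of mating 1, and in 3 of 4 KO, 2 of 4 WT and 1 of 1 KO/WT juveniles of mating 2. In mating 3 the KO and WT groups therefore differ at least in the 1.11 Mb of chromosome 11 that these 4 loci span, as well as in the deletion. Farther along, at chr11:9869763, 9875239, 19307963 and 19315825, which the test did not call, the KO animals held 169 to 284 RPM. There M05139, M05141 and M05667 (WT) held 0 to 8.12 RPM, but M05669 (WT) held 184 to 200 RPM. The part of chromosome 11 in any other difference between these groups cannot be told apart from that of the deletion.

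**Figure D5:**
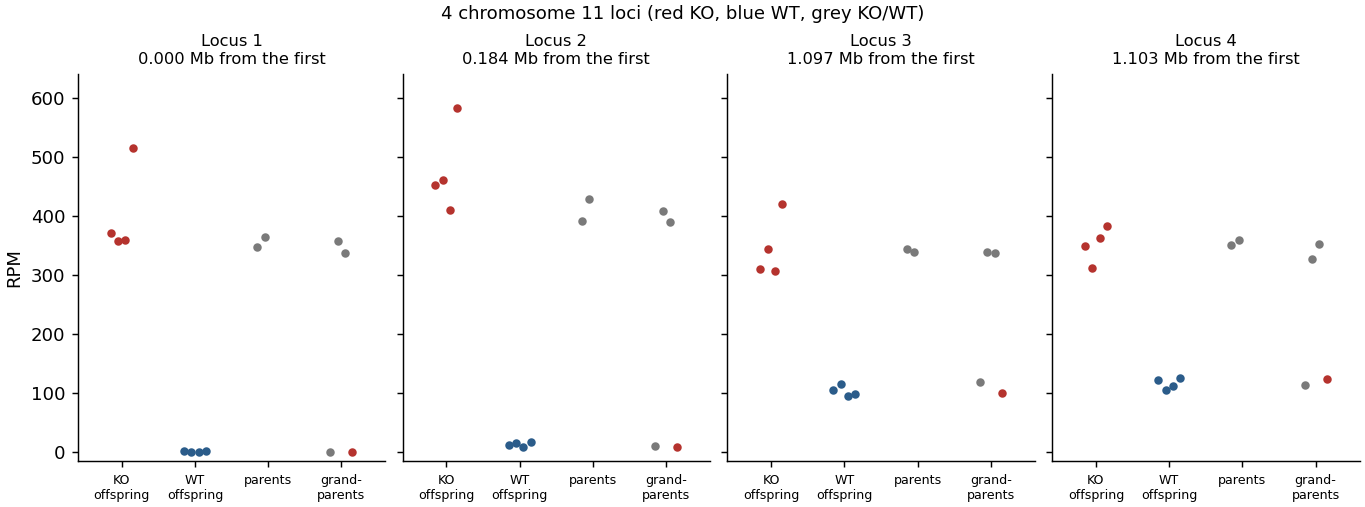
RPM (y axis) at the 4 loci of chromosome 11 called between KO and WT, with 1 point per library for KO offspring, WT offspring, parents and grandparents (red KO, blue WT, grey KO/WT). At the first locus the KO offspring lie at 357 to 516 RPM and the WT offspring at 0 to 1.72 RPM.

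The litter was last set beside the other juvenile tails of the same background. The 8 offspring of mating 3 had 0 to 91 insertions with a median of 28, the 13 of mating 1 had 0 to 87 with a median of 2, and the 9 of mating 2 had 0 to 428 with a median of 19. The mean was 33.3 in mating 3 and 39.5 in the 22 animals of matings 1 and 2. Those 22 include C7416 and C7249, the parents of the litter, so the groups are not independent. Mating 1 held KO and KO/WT animals but no WT animal. Ranks went the other way from the means, with mating 3 higher in 22.7 percentage points more of the pairs than lower, and the test did not separate them (exact two-sided permutation p = 0.357). Animals with at most 2 insertions were 2 of 8 in mating 3 and 9 of 22 in matings 1 and 2. The highest number, 428, was that of C5733, a WT animal of mating 2. Without it the mean of the other 21 animals of matings 1 and 2 was 21.0, below that of mating 3. The order of the means also turned with the filter. Where other animals could hold no read at all, they were 32.1 in mating 3 and 19.9 in matings 1 and 2, at 5 RPM 92.6 and 79.8, and with reads allowed in ancestors 33.5 and 51.7.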

How the data were processed

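Genomic DNA of mouse tails was captured with RNA probes for ETn LTR ends and sequenced as 50 bp read pairs. Per the study's methods and the submitters' processing notes, the authors mapped mates separately to mm9 with Bowtie, kept unique reads after duplicate removal with SAMtools whose mate lies in an ETn repeat, and joined reads within 1000 bp with bedtools. Versions of these were not given in the sources used here. Per region and library, the authors deposited whole read counts, neither normalized nor pooled. Duplicate removal limits the count at a locus, and reads carry no molecular identifiers.

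Called regions (10 RPM or more) of all 87 libraries within 1000 bp of each other were joined to 5018 loci. The reference NCBIM37 is the assembly mm9, and 0 regions passed a chromosome end. Genes are GENCODE vM1, with coding exon placed before other exons and introns. Parent numbers that lack a digit in some labels (BA2728, BA2727) were read as BA27228 and BA27227. Probe-like sequence was found with BLAST 2.17.0 (80% identity over 40 bases, within 1000 bp). Per-animal numbers were compared by exact permutation tests of the rank sum, adjusted by the Benjamini-Hochberg method over 4 comparisons. Counts per locus were tested with edgeR 4.0.16 (TMM, filterByExpr, 4 KO and 4 WT) in R 4.3.3 and with DESeq2 1.42.0 as an alternative, at an adjusted p of 0.05, and the scripts were tested on simulated data. The edgeR test reports no SE, so each SE is the absolute log2 fold change divided by the square root of its F statistic. The 8 offspring libraries carry 8 mouse numbers, so n counts animals. The loci named are the shared insertions, the 5 highest single-animal insertions per genotype, those at coding exons, genes hit in at least 2 offspring, and, among loci tested by edgeR, the 5 lowest p per direction and all called ones in the cluster. Others named were chosen after their values were seen. Members, lists and alternatives were chosen with earlier results of these data known. Alternatives changed the RPM limit, depth, joining, filters, sex, normalization and animals.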

Additional observations from a re-analysis of the deposited data

Results flagged for a closer look

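In 8 of 47 groups of 4 animals looked at, 1 animal lay far from the other 3 (by Dixon's gap to range ratio at the 95% level). About 1 in 20 independent groups of normally distributed values would pass that level. These groups hold the same animals at partly linked loci, so their number cannot be compared with that rate. M05137 (KO) was called at 57 segregating loci, against 65 to 66 in the other KO animals, but with carriage set at 50 RPM it had 56 against 64 to 66 and no longer lay that far from them. At chr11:6763764 M05668 (KO) held 516 RPM, against 357 to 371 RPM. Among WT, M05667 held 412 RPM at chr4:143802192, against 213 to 233 RPM, and 267 RPM at chr4:144439298, against 22.4 to 32.5 RPM. M05669 (WT) held 19.0 RPM at chr4:146229195, against 9.20 to 9.74 RPM. M05666 (KO) was lowest at chr4:147689506 with 462 RPM, against 483 to 485 RPM, and at chr4:155294067 with 140.0 RPM, against 149 to 150 RPM, and highest at chr4:143377585 with 395 RPM, against 349 to 353 RPM.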

How the results depend on the processing

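No per-animal comparison had an unadjusted p under 0.05 in any alternative run, but not all of them could have. The smallest exact two-sided permutation p that 3 against 4 animals allow is 0.0571, and fewer animals allow only a higher one. For segregating loci without M05137 every KO animal exceeded every WT animal, and p was at that smallest value. The KO and WT difference in insertion number (in percentage points of pairs) was 0 at 5 RPM and, as alternatives chosen after seeing the data, 0 for summed RPM and 100 in males only, and leaving out each animal gave -50 to 16.7, above 0 without M05137 or M05666. Within the mouse numbers M05137 to M05143 it was -50 and within M05666 to M05669 it was 0, a split also added after seeing the data. For the median RPM per insertion leaving out each animal gave -25 to 50, and animals with at least 5 insertions gave -25. For the percent in genes these gave 0 to 75 and 0. For segregating loci leaving out each animal gave 66.7 to 100, and 200 RPM in a parent gave 0, while without chromosome 4 it fell from 75 to 31.3 (p = 0.571 in the exact permutation test), and at 50 RPM for carriage, chosen after seeing the data, it was 87.5 on the same loci and on 121 loci chosen anew. Mating 3 against matings 1 and 2 kept its direction in all 14 alternatives (p from 0.197 to 0.888). The number of loci called was 11 to 13 with DESeq2, no TMM, no filter or sex as a covariate, 12 with the range of mouse numbers as a block (the same 12 loci, an added alternative), and 10 to 16 without 1 animal, with 10 to 12 of the 12 loci called each time. The Sntb1 locus count stayed at 1. No paired analysis was possible because replicate numbers were given in accession order and pair no animals. At 580349 reads an insertion needs 5.80 reads, and 5 RPM, with fewer reads, gave more insertions in 6 of the 8 animals.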
